A study of Mus musculus with 8 samples.

Results

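The genes described here encode the main cathepsins of the lysosome and legumain: Ctsa, Ctsb, Ctsc, Ctsd, Ctsh, Ctsl, Ctss, Ctsz and Lgmn. These 9 genes were chosen by name among the 55416 genes of the count table, by a rule that uses no measured value, although earlier results of these data were known, and all 9 were among the 13147 genes with enough counts to be tested. RNA-seq had been done on the dorsal epidermis of mice at postnatal day 4, with 4 libraries labelled as epidermal Rora knockout (RoraEKO) and 4 labelled WT, here called control. RoraEKO mice carry floxed Rora alleles and a Cre transgene driven by the keratin 14 promoter, so the deletion is directed to keratinocytes and not to the melanocytes, Langerhans cells or T cells of the same sheet. The study calls its control mice littermates at this age, and the sources used here give neither their alleles nor the sex of the mice sequenced. The libraries came from 4 mice per genotype. Each sample title starts with the letter A, B or C, and the labels do not say what the letter stands for: letters A and B hold 1 control and 1 RoraEKO library each, and letter C holds 2 of each.

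Cathepsins are proteases made as inactive precursors, carried to lysosomes by the mannose 6-phosphate receptors and activated at acid pH. Most are cysteine proteases with a papain-like fold, while cathepsin D is an aspartic protease, cathepsin A a serine carboxypeptidase and legumain a cysteine protease that cuts after asparagine. In skin, cathepsin D and cathepsin L are known for processing proteins during keratinocyte differentiation, loss of cathepsin L in mice disturbs hair follicle cycling, and cystatins and some serpins hold the cysteine cathepsins in check.

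The libraries held between 17286903 and 26705533 counts, and values are given as CPM (counts scaled to a common library size) with TMM factors. Rora itself averaged 212 ± 66.6 CPM (SD, n = 4) in the control and 196 ± 34.6 CPM (SD, n = 4) in the RoraEKO libraries, and the log2 fold change was -0.11, with an adjusted p of 0.877 in edgeR. The genotypes thus overlapped in Rora, and counts of the whole gene do not check the deleted exons. Xist, the transcript of the inactive X chromosome, was at 416 and 527 CPM in control libraries C1 and C6 and at no more than 0.0546 CPM in the other 6. Ddx3y, a gene of the Y chromosome, was at 0 CPM in C1 and C6 and at 15.7 to 24.1 CPM in the other 6. By these values C1 and C6 were female and the other 6 male. Both female libraries were thus controls of letter C, and sex was not balanced between the genotypes. Of 5 spinous keratinocyte markers, the keratins Krt1 and Krt10 made up most of the sum, which ran from 44840 to 70750 CPM in the control and from 86045 to 107112 CPM in the RoraEKO libraries. Both keratins were higher in all RoraEKO libraries, Dsg1a and Sbsn overlapped between the genotypes, and Krtdap was at 2794 to 3668 CPM in the control and 2447 to 2823 CPM in the RoraEKO libraries. Of 6 granular keratinocyte markers, Casp14 (1284 to 1773 CPM in the control, 2061 to 2669 CPM in the RoraEKO libraries) and Tgm3 (157 to 299.9 and 306 to 403 CPM) were higher in all RoraEKO libraries, while Flg, Loricrin, Ivl and Klk7 overlapped. The summed basal keratinocyte markers ran from 283 to 1252 CPM over all 8, and of the 7 genes Krt15 alone did not overlap, at 95.6 to 126 CPM in the control and 55.4 to 93.9 CPM in the RoraEKO libraries.

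Transcription factors of the TFEB and TFE3 family bind the element TCACGTGA, with the core CACGTG, near the start of many lysosomal genes, and RORα binds AGGTCA preceded by an A/T-rich stretch. These 3 motifs were searched on both strands in the 250 bases before each start in the RefSeq promoter table (GRCm38.p6), which had 9 entries for 7 of the 9 genes and none for Ctsb and Ctsh. TCACGTGA, which contains CACGTG, occurred before starts of Ctsa and Ctsd, in 2 of the 9 windows, against 0.785% of all 32851 windows of the table. CACGTG occurred in 4 of the 9 windows, 1 each of Ctsa, Ctsd, Ctsl and Lgmn, against 6.02% of all windows. AGGTCA occurred in 3 of the 9 windows, 1 each of Ctsa, Ctsd and Ctss, against 14.0% of all windows. For Ctsc and Ctsz none of the 3 was found. The sites of Ctsd and the TCACGTGA site of Ctsa are shown because these genes carry the longer element, and the site of Ctss because it carries AGGTCA alone. The AGGTCA site of Ctsa is not shown. The search did not ask for an A/T-rich stretch before AGGTCA, and the bases before it in the Ctss site are not A/T-rich. Each is 30 bases on the gene's own strand, matched to GRCm39, with the motif in capitals.
Ctsd, chr7:141941645-141941674, minus strand, 110 to 81 bases before the start: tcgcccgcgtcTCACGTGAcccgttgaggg
Ctsd, chr7:141941785-141941814, minus strand, 250 to 221 bases before the start, where CACGTG runs into AGGTCA read on the other strand: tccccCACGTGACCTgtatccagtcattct
Ctsa, chr2:164675663-164675692, plus strand, 30 to 1 bases before the second listed start: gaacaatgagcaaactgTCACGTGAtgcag
Ctss, chr3:95433949-95433978, plus strand, 148 to 119 bases before the start: tgttctctgctgAGGTCAttctattgatgg
In release 39 of the GENCODE annotation, exons covered 211 of the 250 bases of the Ctsd window, 177 and 250 of those of the Ctsa windows and 75 of those of the Ctss window. They covered 48 bases of the Ctsl window and all 250 of the Lgmn window that holds CACGTG, and the RefSeq starts of these windows lie 143 and 290.0 bases from the nearest start in that annotation. A match describes the letters only.

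The first comparison asked whether the cathepsin genes differed between RoraEKO and control epidermis. None of the 9 genes passed both cutoffs, 1.5-fold and an adjusted p of 0.05, in edgeR's quasi-likelihood test, against 5.51% of all tested genes, of which 2.30% were higher and 3.22% lower. The range of the control libraries overlapped that of the RoraEKO libraries for all 9 genes, while for 12.9% of all tested genes the groups did not overlap (5.4% higher and 7.54% lower). At an unadjusted p of 0.05, 1 gene passed (Ctsc), against 18.2% of all genes. Fold changes were positive for 6 genes and negative for 3, with a median of 0.05 on the log2 scale beside -0.04 for all tested genes. DESeq2 and edgeR's exact and likelihood ratio tests also called 0 of the 9. In bulk epidermis, fewer cells of a type and less RNA per cell cannot be told apart.

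**Figure D1:**
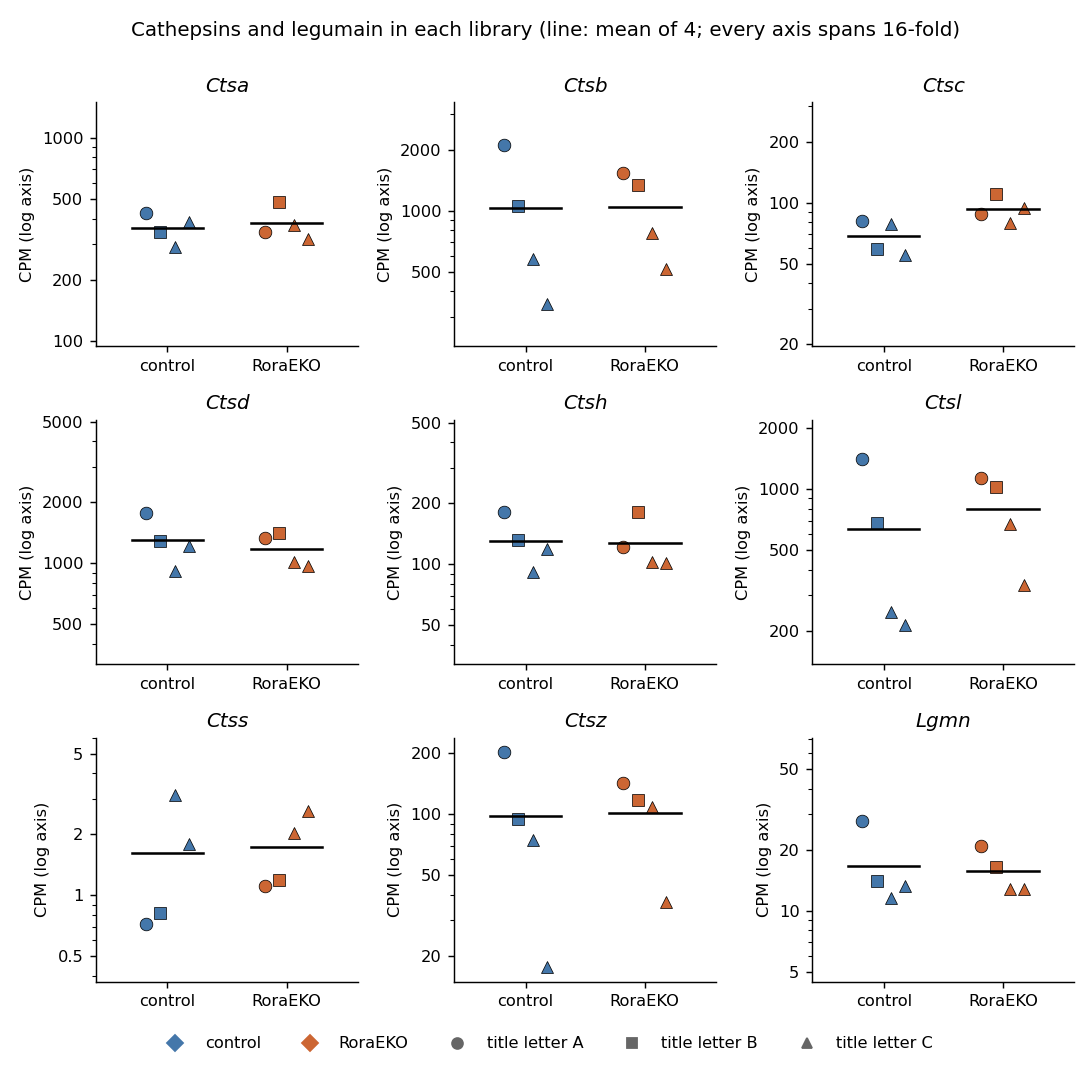
Level of each of the 9 genes in each library, in CPM on a log axis that spans 16-fold in every panel, with control and RoraEKO libraries side by side, the symbol giving the letter of the sample title and the line the mean of 4 libraries. The genotypes overlap in all 9 panels, and Ctsb, Ctsl and Ctsz spread further within a genotype than Ctsa, Ctsc or Ctsh.

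Cathepsin D, the aspartic endopeptidase of lysosomes (Ctsd, chr7:141929646-141941775 on the minus strand of GRCm39), had the highest level of the 9 genes per length of exon. Its level was 1766, 1284, 923 and 1219.6 CPM in control libraries A1, B1, C1 and C6, and 1333, 1412, 1015 and 973 CPM in RoraEKO libraries A3, B4, C2 and C3. The highest and the lowest value were both in control libraries, and all RoraEKO values lay between them. The log2 fold change was -0.13 with an SE of 0.235, and the adjusted p was 0.851. An interval with 97.1% confidence, from the lowest to the highest of the 16 differences between a RoraEKO and a control library, ran from -0.86 to 0.61 on the log2 scale.

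Cathepsin B (Ctsb, chr14:63358384-63383372, plus strand) and cathepsin L (Ctsl, chr13:64507151-64518704, minus strand) are the widely expressed cysteine endopeptidases of the group. Ctsb was at 2118, 1058, 579.8 and 345 CPM in control libraries A1, B1, C1 and C6, and at 1539, 1344, 771 and 512 CPM in RoraEKO libraries A3, B4, C2 and C3. Both genotypes fell in the same order, from letter A through B to C, and the control libraries spanned 6.14-fold. The means of 1025 ± 786 and 1042 ± 480.3 CPM (SD, n = 4 each) gave a log2 fold change of 0.02 (SE 0.673, adjusted p 0.993, edgeR), and the interval of the difference ran from -2.05 to 2.16. Ctsl was at 1406, 682, 248 and 214 CPM in the control libraries and at 1135, 1026, 676 and 338 CPM in the RoraEKO libraries, in the same order of libraries. Its libraries again descended from letter A to C, with the Xist-high controls C1 and C6 lowest of all 8. The log2 fold change of 0.32 (SE 0.753, adjusted p 0.868, edgeR) was smaller than its SE, and the interval ran from -2.06 to 2.41. Without control library A1 the log2 fold changes were 0.66 for Ctsb and 1.06 for Ctsl. They turned negative with Xist as a covariate, at -0.67 and -0.46, and without the 2 Xist-high controls, at -0.55 and -0.33, and none of these values was called. Ctsb overlaps Fdft1 on the opposite strand, which was at 92.3 to 131 CPM, and the sources do not say whether strand was used in counting.

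Cathepsin S (Ctss, chr3:95433963-95463717, plus strand) trims the invariant chain of class II molecules in antigen-presenting cells. Its level was low in this tissue, with 15 to 66 counts in the control and 17 to 52 counts in the RoraEKO libraries. In CPM this was 0.723, 0.820, 3.12 and 1.80 in control libraries A1, B1, C1 and C6, and 1.11, 1.19, 2.02 and 2.60 in RoraEKO libraries A3, B4, C2 and C3. Here the letter C libraries were the high ones in both genotypes, the reverse of Ctsb and Ctsl. The log2 fold change was 0.10 (SE 0.544, adjusted p 0.956, edgeR), with an interval from -1.42 to 1.72. With Xist as a covariate it was 1.2 (adjusted p 0.221) and without the 2 Xist-high controls 1.21 (adjusted p 0.264), neither of them called. Cd207, the defining gene of Langerhans cells, was at 0.392 to 3.12 CPM over the 8 libraries, and the summed macrophage markers were at 5.74 to 20.9 CPM. Of 39 markers in 5 immune cell lists, 3 were, like Ctss, higher in all letter C libraries than in all of A and B, beside 5.16% of all tested genes. They were Ptprc, the pan-leukocyte gene, at 2.78 to 5.68 against 0.945 to 2.28 CPM, Adgre1, a macrophage gene, at 0.649 to 1.09 against 0.109 to 0.533 CPM, and the granzyme Gzmc at 0.675 to 1.14 against 0.196 to 0.492 CPM. The lowest values of Adgre1 and Gzmc lay near the floor of 3 counts. Another 2, Mfge8 (11.3 to 27.9 against 32.8 to 78.5 CPM) and S100a8 (3.23 to 7.74 against 10.1 to 15.1 CPM), were lower in all letter C libraries, beside 5.69% of all tested genes. The rest overlapped between the letters. The summed T cell markers had r = 0.64 with Ctss over the 8 libraries and the macrophage sum r = 0.11. The Langerhans cell sum (254 to 370.2 CPM) was mostly Epcam, an epithelial gene at 102 to 208 CPM, so its r is not given. The part of these cells in Ctss was not tested.

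Cathepsin C (Ctsc, chr7:87927092-87960096, plus strand) removes dipeptides from the start of proteins and activates the serine proteases of immune cells. It had the smallest p of the 9 genes. Control libraries A1, B1, C1 and C6 were at 80.9, 59.2, 78.1 and 55.1 CPM, and RoraEKO libraries A3, B4, C2 and C3 at 88.1, 111, 79.0 and 94.4 CPM. The groups overlapped in 1 place, where RoraEKO library C2 lay below control library A1. The means were 68.3 ± 13.1 CPM in the control and 93.1 ± 13.4 CPM in the RoraEKO libraries (SD, n = 4 each). This difference did not pass the test, and the log2 fold change was 0.45 (SE 0.173), with an unadjusted p of 0.0220 and an adjusted p of 0.174 (edgeR). An exact two-sided permutation test of the 4 against 4 libraries gave p = 0.0571, where 0.0286 is the smallest it can give, and the interval ran from -0.03 to 1.01. Within the letters of the titles the RoraEKO mean exceeded the control mean by 0.12, 0.90 and 0.40 on the log2 scale for A, B and C, and Ctsc was the only one of the 9 genes with 1 sign in all 3. Both controls of letter C were the Xist-high libraries. The keratinocyte markers Krt1, Krt10, Casp14 and Tgm3 were higher and Krt15 lower in all RoraEKO libraries. All other markers of the basal, spinous and granular lists overlapped between the genotypes. The part of keratinocyte stages in the Ctsc values was not tested.

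Cathepsin H (Ctsh, chr9:89936205-89958148, plus strand) is mainly an aminopeptidase, and cathepsin Z (Ctsz, chr2:174267304-174280832, minus strand) a carboxypeptidase that removes the last residue of its substrates. Ctsh was at 181, 132, 91.1 and 119 CPM in control libraries A1, B1, C1 and C6 and at 121, 182, 103 and 101 CPM in RoraEKO libraries A3, B4, C2 and C3. Each genotype had 1 library above the rest, A1 and B4, and the log2 fold change was -0.04 (SE 0.284, adjusted p 0.963, edgeR), with an interval from -0.84 to 1.0. Ctsz was at 203, 94.8, 74.5 and 17.6 CPM in the control libraries and at 142, 117, 109 and 36.9 CPM in the RoraEKO libraries, in the same order of libraries. The lowest library of each genotype, C6 and C3, stood well below the others. No other gene of the 9 had so wide a spread, 11.6-fold between its lowest and highest library, and its log2 fold change of 0.05 had an SE of 0.857 (adjusted p 0.986, edgeR) and an interval from -2.46 to 3.01. Its log2 fold change was -0.63 with Xist as a covariate and -0.50 without the 2 Xist-high controls, neither of them called. Nelfcd, which overlaps Ctsz on the opposite strand, was at 4.82 to 11.3 CPM.

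Cathepsin A (Ctsa, chr2:164674778-164682961, plus strand) protects β-galactosidase (Glb1) and neuraminidase (Neu1) in a complex, besides its own carboxypeptidase activity. It was at 424, 342, 289 and 387 CPM in control libraries A1, B1, C1 and C6 and at 343, 485, 372 and 316 CPM in RoraEKO libraries A3, B4, C2 and C3. The RoraEKO values reached higher and the control values lower, with most of both ranges shared. Ctsa had the narrowest spread of the 9 genes, 1.68-fold over the 8 libraries, and its log2 fold change was 0.07 (SE 0.180, adjusted p 0.905, edgeR), with an interval from -0.42 to 0.75. Its partner Glb1 fell from 16.2 ± 3.34 to 4.84 ± 0.834 CPM (SD, n = 4 each), and the groups did not overlap (log2 fold change -1.74, SE 0.192, adjusted p 0.000911, edgeR). Neu1, named here after its values were seen, was at 9.03 ± 1.71 CPM in the control and 7.78 ± 0.835 CPM in the RoraEKO libraries (adjusted p 0.598, edgeR).

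Legumain (Lgmn, chr12:102359122-102414682, minus strand) processes other lysosomal proteases, among them cathepsins B, H and L. It was at 27.7, 14.0, 11.6 and 13.2 CPM in control libraries A1, B1, C1 and C6 and at 20.8, 16.5, 12.8 and 12.7 CPM in RoraEKO libraries A3, B4, C2 and C3. In both genotypes the letter A library was the highest, and the other 6 lay between 11.6 and 16.5 CPM. The log2 fold change was -0.08 (SE 0.327, adjusted p 0.936, edgeR), with an interval from -1.11 to 0.84.

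**Figure D2:**
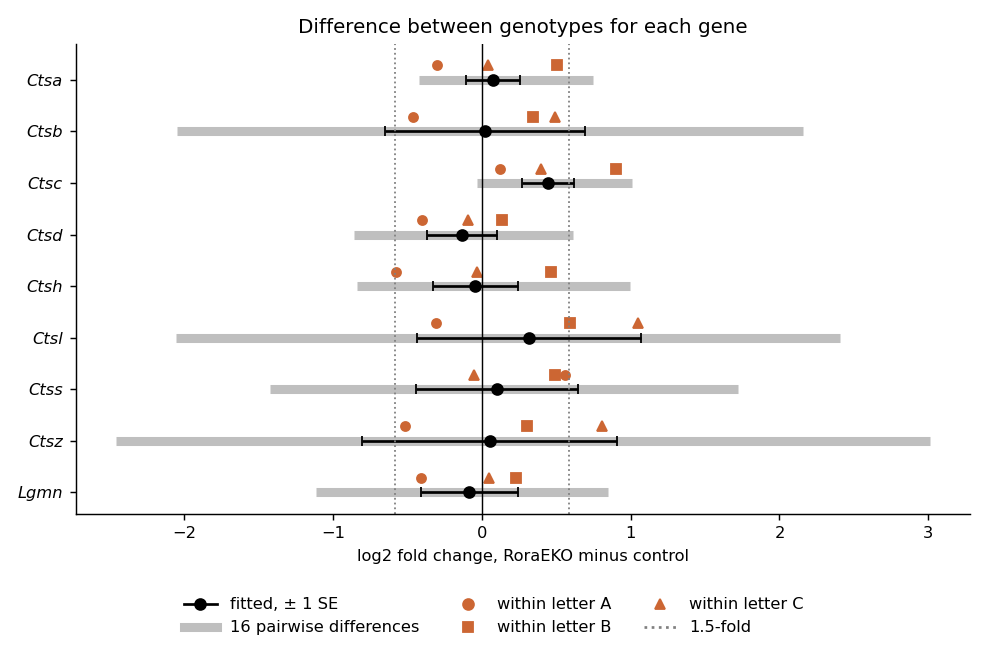
Log2 fold change of each of the 9 genes, RoraEKO minus control: black points are the fitted values with 1 SE, grey bars run over the 16 differences between libraries of the 2 genotypes, coloured symbols are the differences within each title letter, and dotted lines mark 1.5-fold. Every grey bar crosses 0, and Ctsc alone has its 3 within-letter differences on 1 side, at 0.12, 0.90 and 0.40.

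Levels of different genes were compared per length, as CPM per kilobase of exon (CPM per kb) averaged over the 8 libraries. Ctsd led with 448 ± 100.4 CPM per kb (SD, n = 8), above the next gene in 8 of 8 libraries. Ctsb followed with 135 ± 78.6, Ctsl with 107 ± 66.2 and Ctsa with 71.8 ± 12.1 CPM per kb. These neighbours were not cleanly ordered, since Ctsb exceeded Ctsl in 7 of 8 libraries and Ctsl exceeded Ctsa in 5 of 8. Ctsz at 26.8 ± 15.9 and Ctsh at 25.7 ± 7.0 CPM per kb did not differ beyond their spread, with Ctsz higher in 4 of 8 libraries, and they changed places when the longest coding transcript gave the length. Ctsc at 12.9 ± 2.88, Lgmn at 1.95 ± 0.664 and Ctss at 0.316 ± 0.164 CPM per kb closed the order, each below the gene before it in all 8 libraries. Together the 9 genes took from 0.237% of all counts in control library C6 to 0.615% in control library A1.

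Several of the 9 genes varied widely between libraries of the same genotype. The SD of log2 CPM over the 8 libraries exceeded that of 96.0% of all tested genes for Ctsz, of 94.6% for Ctsl, of 91.7% for Ctsb and of 86.2% for Ctss. The other 5 genes lay nearer the median SD of 0.329, at 64.1% for Lgmn, 56.8% for Ctsh, 50.5% for Ctsc, 47.3% for Ctsd and 30.8% for Ctsa.

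**Figure D3:**
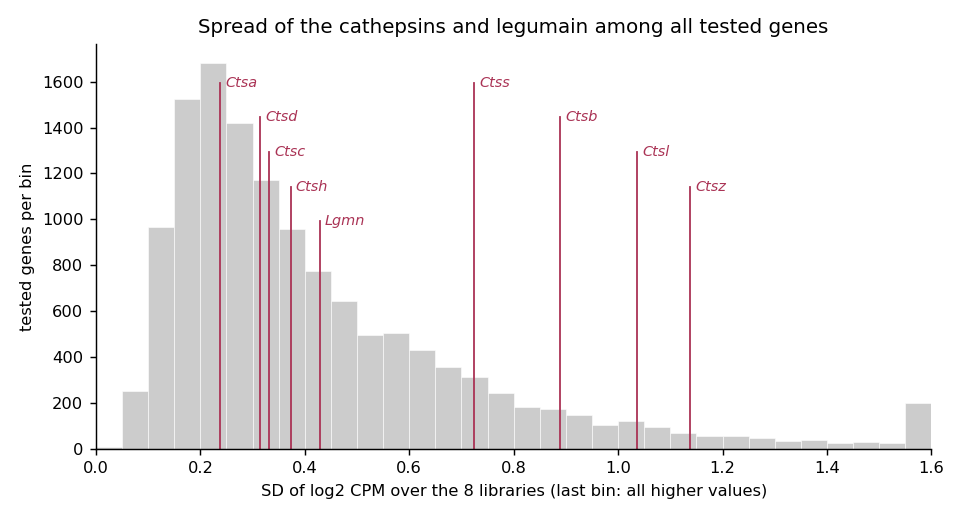
Number of tested genes in bins of 0.05 of the SD of log2 CPM over the 8 libraries, with red lines at the SD of each of the 9 genes and all values above the axis placed in the last bin. Ctsz, Ctsl, Ctsb and Ctss lie in the right tail, and Ctsa lies below the median of 0.329.

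Several genes differed between the letters of the sample titles. Letter A libraries exceeded letter C libraries 3.81-fold for Ctsl, 3.55-fold for Ctsz, 3.40-fold for Ctsb and 1.91-fold for Lgmn in geometric mean. The ratios were 1.49 for Ctsd, 1.44 for Ctsh, 1.13 for Ctsa and 1.12 for Ctsc, and Ctss ran the other way with a ratio of 0.408. For 5 of the 9 genes, Ctsb, Ctsd, Ctsh, Ctsl and Lgmn, all 4 libraries of letters A and B lay above all 4 of letter C, against 5.69% of all tested genes. For Ctss all 4 lay below, against 5.16% of all tested genes. Ctsz, the most variable gene, did not separate by letter, since RoraEKO library C2 at 109 CPM lay above control library B1 at 94.8 CPM. A test of the letter terms beside genotype, chosen after seeing the data, gave no gene of the 9 past an adjusted p of 0.05 in edgeR's quasi-likelihood fit in its legacy form, against 0.0532% of all genes. At an unadjusted p of 0.05 it gave 6 of the 9, against 24.1% of all genes, and the non-legacy form of the fit 6 of the 9 against 24.8%, with 0 of the 9 against 0.943% after adjustment. In the legacy form the smallest adjusted p values were 0.0548 for Ctsb and Lgmn and 0.0608 for Ctsl, in the non-legacy form 0.0514, 0.0517 and 0.0533 for the same genes, and the likelihood ratio test put 4 of the 9, Ctsb, Ctsl, Ctss and Lgmn, past 0.05, against 13.0% of all genes. Within A the RoraEKO library was lower than the control for 7 of the 9 genes, against 56.6% of all tested genes. Within B it was higher for all 9, against 48.8%, and within C, the only letter with 2 libraries per genotype, the RoraEKO mean was higher for 6 and lower for 3, against 46.9% higher. Both controls of letter C, C1 and C6, were the Xist-high libraries, so genotype and sex cannot be told apart within C. The 9 genes are correlated with each other, so the signs within the letters are not independent.

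**Figure D4:**
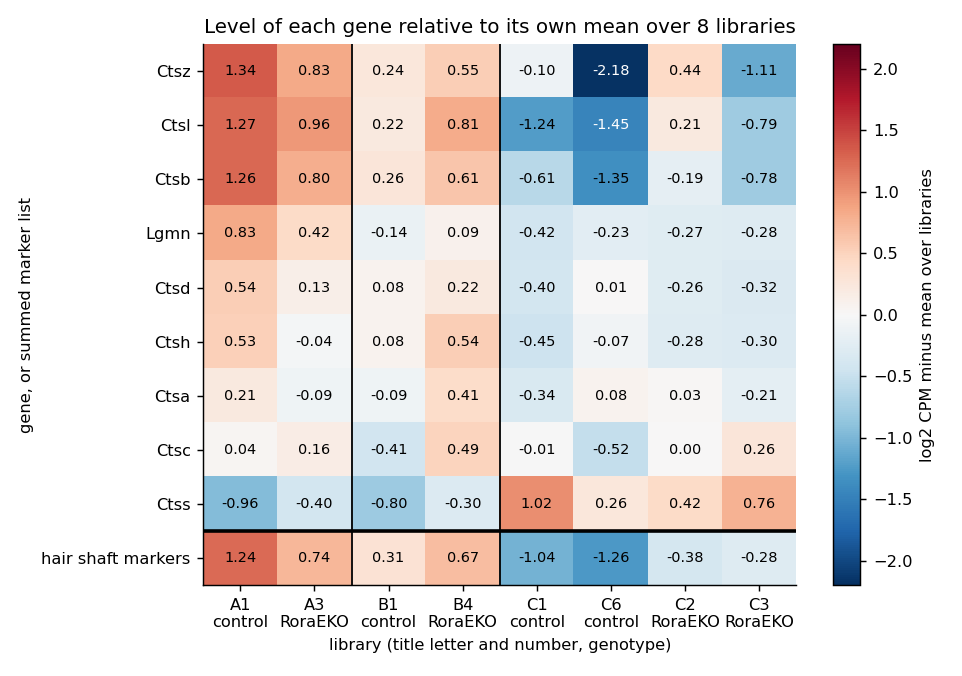
Log2 CPM of each gene minus its own mean over the 8 libraries, one column per library grouped by title letter, with the summed CPM of 6 hair shaft markers on the same scale in the bottom row. Ctsz, Ctsl and Ctsb are above their mean in all 4 libraries of letters A and B, Ctss is below its mean there, and the hair shaft row has the same signs as Ctsb in all 8 libraries.

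Markers of other cell types were read beside this pattern. The list of 6 hair shaft markers held the hair keratins Krt31, Krt35, Krt85 and Krt33a together with Krt71 of the inner root sheath and Tchh of the inner root sheath and medulla. Their summed CPM was 38260 in A1, 26928 in A3, 20064 in B1 and 25755 in B4. In letter C it was 7854 in C1, 6742 in C6, 12397 in C2 and 13270 in C3. Of the 6 markers, Krt71 (2179 to 18068 CPM) and Tchh (3645 to 16039.9 CPM) made up most of the sum and had all libraries of letters A and B above all of letter C, and none was at 0 in all libraries. The log2 sum correlated over the 8 libraries with Ctsb at r = 0.96, with Ctsl at r = 0.95, with Lgmn at r = 0.85 and with Ctss at r = -0.82, as a description of 8 libraries that share their letters. For the other genes r was 0.81 with Ctsz, 0.79 with Ctsd, 0.77 with Ctsh, 0.50 with Ctsa and 0.46 with Ctsc. Taken singly, the r with Ctsb was 0.95 for Krt71 and 0.92 for Tchh, 0.85 for Krt31, 0.86 for Krt33a, and 0.68 for both Krt35 and Krt85. Summed melanocyte markers (51.5 to 144 CPM) correlated with Ctsb at r = 0.88, and of the 7 genes Mitf had the highest level and r (25.3 to 95.8 CPM, r = 0.92), with Mlana at r = 0.74, Kit at r = 0.69, and Dct, Tyrp1, Tyr and Pmel between -0.01 and 0.42. Of the 5 adipocyte markers only Fabp4 was above 0.247 CPM (59.2 to 299.2 CPM, r = 0.87 with Ctsb), so the adipocyte sum is that gene. The part of these cells in the cathepsin levels was not tested.

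Among the 36 pairs of the 9 genes, 29 had a positive correlation of log2 CPM over the 8 libraries and 14 an r above 0.7. All 7 negative pairs involved Ctss. Ctsb and Ctsl were the most alike, with r = 0.962 and rho = 0.976, and r = 0.934 without the 2 libraries farthest from the median of Ctsb. Ctsd and Ctss were the most opposed, with r = -0.915 and rho = -0.905, and r = -0.840 without the 2 libraries farthest from the median of Ctsd. Of 13146 other genes, 51 were more alike to Ctsb than Ctsl was. The gene most alike over the 8 libraries was Epn1 for Ctsb (r = 0.993), Dusp11 for Ctsl (r = 0.992), Itgb3 for Ctsz (r = 0.994) and Slc66a1, a lysosomal amino acid transporter, for Lgmn (r = 0.990). It was Hbp1 for Ctsd (r = 0.988), Zfp65 for Ctss (r = 0.982), Psmd13 for Ctsa (r = 0.968), Stn1 for Ctsc (r = 0.967) and Tufm for Ctsh (r = 0.961). With 8 libraries in 3 letters such values are descriptions, and r above 0.9 was reached with Ctsb by 331 genes and with Ctsa by 14.

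Other cathepsins were few in this tissue. Of 14 further cathepsin genes, 3 were tested and 0 called. Ctse, an aspartic protease like cathepsin D, ranged from 31.5 to 322 CPM with its highest value in control library A1, and had a log2 fold change of -0.17 (SE 0.793, adjusted p 0.943, edgeR). Ctsf was at 7.49 ± 3.01 CPM in the control and 6.47 ± 1.84 CPM in the RoraEKO libraries, and Ctsw, a cathepsin of cytotoxic lymphocytes, at 4.61 ± 1.29 and 6.68 ± 2.5 CPM (SD, n = 4 each). The bone cathepsin Ctsk reached at most 5 counts, Ctso 11 and the neutrophil protease Ctsg 2, and the placental genes Ctsq, Ctsr, Ctsj, Ctsm, Cts3, Cts6, Cts7 and Cts8 had 0 counts in every library.

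Inhibitors of the cysteine cathepsins were read next. Of 15 tested inhibitor genes, 5 were called higher and 0 lower in RoraEKO epidermis, beside 2.30% and 3.22% of all tested genes. The groups did not overlap for 7 that were higher and 2 that were lower, beside 5.4% and 7.54% of all tested genes. The stefin Stfa2, a cytosolic cystatin, rose from 90.9 ± 2.95 to 553 ± 79.8 CPM (SD, n = 4 each). Its log2 fold change was 2.61 (SE 0.106, adjusted p 2.34e-05, edgeR). Serpinb3c, a serpin of a clade with members that inhibit cathepsins, rose from 4.53 ± 0.962 to 221 ± 28.4 CPM, and Serpinb3a from 168 ± 48.3 to 490.0 ± 70.3 CPM. Fetub, a secreted cystatin-like protein known best as an inhibitor of a metalloprotease, rose from 0.584 ± 0.311 to 52.0 ± 30.01 CPM. Serpinb3d was at 0 to 0.109 CPM in the control libraries, under the floor of 3 counts, and at 0.771 to 4.18 CPM in the RoraEKO libraries, so no fold is given. The Serpinb3 and stefin genes are near-identical copies among which the authors' counting could divide reads, and their separate values are uncertain to that extent. The calls of the Serpinb3 genes are thus not independent of each other. Cst3, cystatin C, a secreted inhibitor, did not pass the cutoffs, at 243 ± 21.0 CPM in the control and 196 ± 19.2 CPM in the RoraEKO libraries (adjusted p 0.237, edgeR). Serpinb13, at 1.25 ± 0.429 and 0.655 ± 0.0661 CPM, did not pass either (adjusted p 0.140, edgeR). For Cst3 and Serpinb13 all RoraEKO libraries lay below all control libraries. Cst6, cystatin M/E, another secreted inhibitor, was at 404 ± 125 and 535 ± 87.1 CPM (adjusted p 0.399, edgeR). Cst3, Serpinb13 and Cst6 are named here after their values were seen. Beside these inhibitors, the spinous and granular markers Krt1, Krt10, Casp14 and Tgm3 were higher and the basal marker Krt15 was lower in all RoraEKO libraries, while the other spinous and granular markers overlapped between the genotypes, and the part of keratinocyte stages in these values was not tested.

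The rest of the lysosome was read from 8 lists of its enzymes, membrane proteins, proton pump, sorting machinery and regulators. Of their 113 tested genes, 1 was higher (0.885%) and 4 were lower (3.54%), beside 2.30% and 3.22% of all tested genes, and their median log2 fold change was -0.03. Of 18 glycosidases, 2 were lower: Glb1, given above, and Fuca1, which removes fucose from glycans and fell from 174 ± 16.6 to 56.0 ± 9.53 CPM (log2 fold change -1.64, SE 0.137, adjusted p 0.000339, edgeR). Both were called lower in all 21 alternatives, which include leaving out each library. Of 9 sulfatases and phosphatases, Acp5, the tartrate-resistant acid phosphatase, rose from 8.93 ± 1.77 to 16.9 ± 3.83 CPM (adjusted p 0.0250). That call was lost without control B1, C1 or C6 or RoraEKO B4, with adjusted p values of 0.0858, 0.0708, 0.0550 and 0.0594 and log2 fold changes of 0.83, 0.90, 0.92 and 0.77 beside 0.92 with all libraries. Of 20 membrane proteins, Cln8, an endoplasmic reticulum factor that passes lysosomal enzymes on, fell from 187 ± 12.05 to 116 ± 13.7 CPM (log2 fold change -0.68, adjusted p 0.0101). Without RoraEKO library A3 its log2 fold change was -0.58, short of 1.5-fold.

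Of 17 tested genes for the MiT/TFE transcription factors and their regulators, Rragd, a GTPase that controls TFEB at the lysosome, fell from 10.6 ± 2.12 to 4.57 ± 1.82 CPM (log2 fold change -1.21, adjusted p 0.0324, edgeR). That call held without control A1 or RoraEKO C2 and was lost without any of the other 6 libraries, with an adjusted p of up to 0.0979 and log2 fold changes from -1.29 to -1.04. None of 4 other proteases, 10 lipid enzymes, 19 subunits of the proton pump and 16 sorting genes passed both cutoffs in the quasi-likelihood test. Nearest were Asah1, the acid ceramidase, at 35.05 ± 11.6 and 18.4 ± 4.25 CPM (adjusted p 0.0564), and Ppt2, a thioesterase, at 26.0 ± 6.69 and 13.5 ± 4.11 CPM (adjusted p 0.0585), and for both the control and RoraEKO libraries did not overlap. Asah1 was called lower in 8 of 21 alternatives and Ppt2 in 6, DESeq2 and the likelihood ratio and exact tests among them. In the remaining lists the smallest p values belonged to Scpep1 and Prcp (adjusted p 0.434 and 0.918), Atp6v1a and Atp6v0a2 (0.220 and 0.248), and Ap1b1 and Gnptab (0.191 and 0.492).

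**Figure D5:**
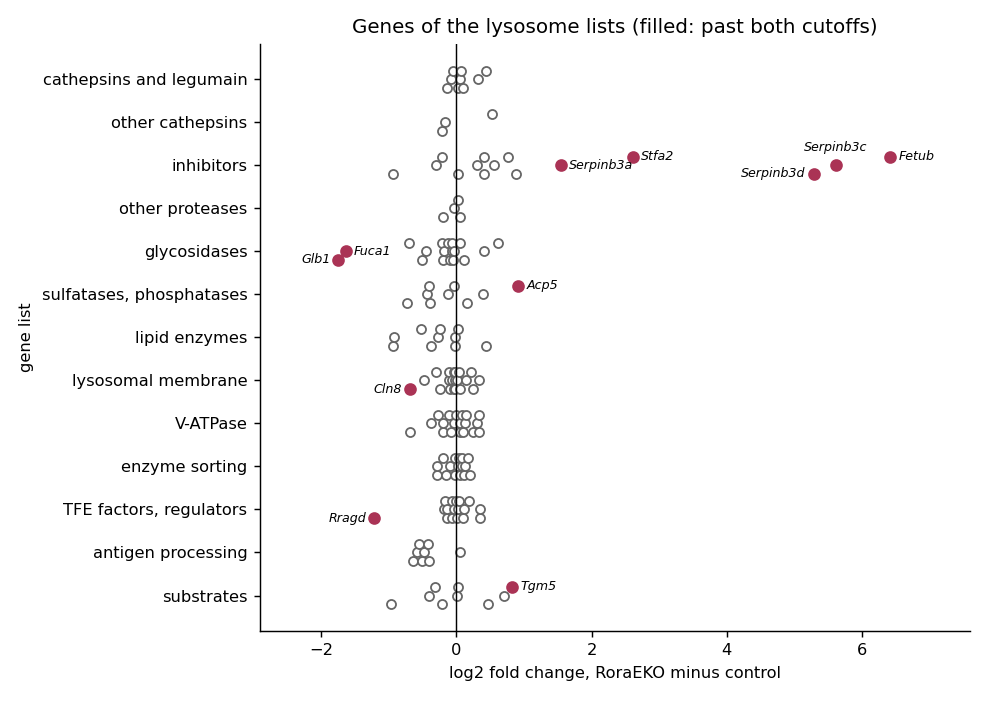
Log2 fold change, RoraEKO minus control, of every tested gene in each gene list, one point per gene, filled and named where it passed both cutoffs. The 9 cathepsin and legumain genes lie between -0.13 and 0.45 with none filled, 5 inhibitors are filled on the right, and Glb1, Fuca1, Cln8 and Rragd are filled on the left. The point of Serpinb3d rests on controls at or under 3 counts and is no measure of its fold.

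Partners of the cathepsins in the 2 processes named above were also read. Of 9 tested genes for proteins that cathepsins are known to cut or activate, 1 was called higher and 0 lower, beside 2.30% and 3.22% of all tested genes. Tgm5, a transglutaminase of the cornified envelope, rose from 35.2 ± 6.35 to 62.4 ± 5.44 CPM (log2 fold change 0.83, SE 0.151, adjusted p 0.00980, edgeR). The groups did not overlap for 3 higher genes and 1 lower, beside 5.4% and 7.54% of all tested genes. Besides Tgm5 these were Tgm1 (299 ± 60.1 to 487 ± 73.7 CPM) and Tgm3, higher, and Hpse (37.1 ± 13.1 to 19.0 ± 5.61 CPM), lower. None of Tgm1, Tgm3 and Hpse was called (adjusted p 0.0578, 0.294 and 0.0883, edgeR), and Tgm1 and Hpse are named after their values were seen. Of 8 tested genes of class II antigen processing, where cathepsin S acts, 0 passed the cutoffs, and the median was -0.49 on the log2 scale. Control library C1 was the highest of all 8 libraries for every one of these genes but Ifi30, and without it the median over the same 8 genes was -0.04. The smallest p values there were those of Ciita and H2-Eb1, with adjusted p values of 0.425 and 0.453 (edgeR). H2-Eb1 was at 10.8 ± 7.43 CPM in the control and 6.89 ± 1.55 CPM in the RoraEKO libraries, and control library C1 alone stood at 21.9 CPM. With Xist as a covariate the calls of Acp5, Cln8, Rragd, Tgm5 and Serpinb3d were lost, at adjusted p values of 0.126, 0.0522, 0.120, 0.0629 and 0.0547 (edgeR). The log2 fold changes of the first 4 were then 0.84, -0.66, -1.12 and 0.78. Without the 2 Xist-high controls those of Acp5, Cln8, Rragd and Serpinb3d were lost, at 0.153, 0.0949, 0.156 and 0.0670, with log2 fold changes of 0.92, -0.61 and -1.07 for the first 3.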

How the data were processed

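RNA-seq of epidermis at postnatal day 4 gave 8 libraries, 4 per genotype, from TruSeq Stranded mRNA kits. After trimming with Skewer and mapping to GRCm39 with STAR 2.5.3a, the authors deposited unscaled RSEM expected counts for 55416 Ensembl genes. Whether counting used strand, and the annotation release, are not given in the sources used here. Symbols came from GENCODE release 39, which held 54749 of the identifiers. Genotype came from the labels, and no sample column was left unused.

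Expected counts were rounded, filtered with filterByExpr (13147 genes), scaled with TMM and fitted without covariates in edgeR 4.0.16 (R 4.3.3), whose quasi-likelihood F test (legacy form) was used at a Benjamini-Hochberg adjusted p of 0.05 over all tested genes and 1.5-fold. Each SE belongs to the difference between group means of log2 CPM, computed with a prior count of 2. The study gives 4 mice per genotype, and the labels name no animal. A floor of 3 counts was 0.112 to 0.196 CPM, for counting error only. The scripts were tested on simulated data.

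The 9 genes, the lists and the rule for other named genes were chosen with earlier results of these data known. The rule took the called genes of each list or else the 2 with the smallest p, the called inhibitors and substrates, the tested cathepsins, and for each of the 9 genes the one most alike. Lists were described by counts and medians only. Alternatives were other size factors, tests, filters and covariates, and leaving out each library. Motifs were searched in RefSeq promoter windows (GRCm38.p6) and the printed sites matched to GRCm39.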

Additional observations from a re-analysis of the deposited data

Results flagged for a closer look

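Of 66 groups of 4 libraries examined for 33 named genes, 4 had 1 library far from the other 3 by Dixon's criterion at 95%, which chance passes in about 5% of groups. Lgmn was at 27.7 CPM in control library A1, against 14.0 CPM in the next control library. Ppt2 was also highest in control library A1, at 35.9 CPM against 23.7 CPM in the next. H2-Eb1 was at 21.9 CPM in control library C1, against 7.71 CPM in the next. Scpep1 was at 127 CPM in RoraEKO library C2, against 103 CPM in the next.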

How the results depend on the processing

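Of the 189 values of the 9 genes under 21 alternatives (2 of them, hair shaft markers as a covariate and leaving out the 2 Xist-high controls, added after seeing the data), 0 were called, 155 kept their direction and 34 did not. Ctsc stayed positive in all 21, between 0.35 and 0.59. With Xist as a covariate the log2 fold change was -0.0241 for Ctsa, -0.67 for Ctsb, -0.46 for Ctsl and -0.63 for Ctsz, and Ctss moved from 0.10 to 1.2, Ctsd to -0.38, Ctsh to -0.32 and Lgmn to -0.44 in the same direction. Without the 2 Xist-high controls it was -0.55 for Ctsb, -0.33 for Ctsl, -0.50 for Ctsz and 1.21 for Ctss. With library size alone it was -0.0339 for Ctsb and -0.0235 for Ctsz, with hair shaft markers as a covariate -0.13 and -0.0143, and with at least 1 count as the filter 0.0188 for Ctsh. Leaving out each library in turn gave -0.0662 to 0.18 for Ctsa, -0.23 to 0.66 for Ctsb, -0.27 to 0.0506 for Ctsd, -0.27 to 0.15 for Ctsh, 0.05 to 1.06 for Ctsl, -0.16 to 0.62 for Ctss, -0.27 to 0.70 for Ctsz and -0.22 to 0.28 for Lgmn, -0.46 to 0.80 for Ctse, -0.39 to 0.0811 for Ctsf, and -0.0275 to 0.16 for Prcp. The cause was not tested. Prcp was at -0.00475 with library size alone and -0.0535 with Xist, and H2-Eb1 at 0.00980 without the 2 Xist-high controls.

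The count of called inhibitors was 3 with at least 10 counts required in every library, which removed low genes, and 5 to 6 without any 1 library. It was 7 with DESeq2, the likelihood ratio and exact tests or hair shaft markers, and 4 without the 2 Xist-high controls. The lysosomal lists had 2 genes higher with DESeq2, the likelihood ratio test, hair shaft markers or the title letter as a replicate block, 0 with Xist or without the 2 Xist-high controls, and 0 to 1 without any 1 library. They had 7 lower with library size alone, DESeq2, the likelihood ratio and exact tests, hair shaft markers or the replicate block, 2 with Xist or without the 2 Xist-high controls, and 2 to 6 without any 1 library. Substrates had 2 higher with RLE factors, DESeq2, both other edgeR tests, hair shaft markers or the replicate block and 0 with Xist, and 1 lower with DESeq2, both other edgeR tests, hair shaft markers or the replicate block. Without any 1 library substrates had 1 to 2 higher and 0 to 1 lower. The letter terms put 4 of the 9 genes past an adjusted p of 0.05 in the likelihood ratio test.

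Controls and RoraEKO libraries of the same letter deviated together with r of 0.0498 to 0.483, positive in every pair. Those of different letters had r of -0.517 to 0.282. The letters were not taken to pair samples, because control B1 and RoraEKO B4 did not reach an r over 0.1. The main fit, its SEs and the intervals therefore do not use the letters, and whether the letters mark matched libraries is not known. The replicate block called 420 genes higher and 579 lower of all tested, against 302 and 423, and 0 of the 9 genes, with Ctse at 0.15. Levels of Ctss rest on 15 to 66 counts, and 4 libraries per genotype limit Ctsb, Ctsl and Ctsz most.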
